A study of Mus musculus with 4 samples.

Results

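Transcripts of 10 Fc receptor and Fc receptor-like genes were examined in 4 RNA-Seq libraries of wild-type mouse B cells. The genes were taken by name, and all 10 were found among the 20599 gene symbols of the files: Fcgr2b, Fcgr3, Fcer1g, Fcer2a, Fcrl1, Fcrl5, Fcrla, Faim3, Pigr and Fcamr. 2 libraries came from peritoneal B1a cells (sorted on surface antigens that included CD23-, IgM+ and CD5+) and 2 from splenic follicular B2 cells (sorted on antigens that included IgM lo, IgD hi and CD21+), all from C57BL/6 mice labelled wild-type, which the methods describe as littermate controls of Dnmt3a-deficient mice. The labels give an age of 4 weeks for every donor, whereas the methods give a later age for the follicular cell donors, so that cell type, tissue and age cannot be told apart in these libraries. Each library was sequenced to between 11032732 and 18588623 counts. The methods name separate mice but no culture or pool beyond that, so p-values measure the spread between 2 libraries of each kind.

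Fc receptors bind the constant part of an antibody and let a cell read the antibodies around it. On B cells the best known is the inhibitory receptor Fcgr2b, which recruits phosphatases when an immune complex joins it to the antigen receptor and so dampens activation. Activating Fc receptors signal through the chain encoded by Fcer1g, which carries an activating motif (ITAM), whereas Fc receptor-like proteins are relatives of the Fc receptors found mainly on B cells, with activating or inhibitory motifs in their own tails.

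5 sequence windows carry the comparisons below. The Fcgr2b exon is shown because the mean length of the transcripts assigned to this gene differed between the cell types. It is coding exon 6 of 8 in transcript Fcgr2b-201, at chr1:170963325-170963465 on the minus strand of GRCm38 (GENCODE M21), holds 141 bases or 47 codons, and is absent from transcript Fcgr2b-202. As background, the product with this insert in its cytoplasmic tail is the form of B cells and the product without it that of myeloid cells. Capitals mark the exon, and 20 bases of the adjoining exons stand on each side in lower case.
Fcgr2b exon 6: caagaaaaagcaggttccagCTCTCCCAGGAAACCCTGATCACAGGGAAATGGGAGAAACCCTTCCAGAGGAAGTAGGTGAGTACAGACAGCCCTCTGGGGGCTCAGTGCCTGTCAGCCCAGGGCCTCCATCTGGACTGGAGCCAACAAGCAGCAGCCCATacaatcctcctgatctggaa

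The 250 bases before a RefSeq transcript start of Fcrl1, Fcrl5, Fcer2a and Pigr are shown because their libraries did not overlap between the cell types and each held at least 139 counts of the gene. They were read from RefSeq promoters on GRCm38.p6, where entries matched all 10 members (Faim3 under its current symbol Fcmr). The transcript starts of Fcrl1 and Fcrl5 lie slightly inside the gene spans given further on, so that the last bases of both windows fall within the span, and those used for Fcrla, Fcgr3 and Fcamr lie well inside the gene. They lie at chr3:87376137-87376386 on the plus strand for Fcrl1, chr3:87435532-87435781 on the plus strand for Fcrl5, chr8:3694175-3694424 on the minus strand for Fcer2a and chr1:130826434-130826683 on the plus strand for Pigr. Capitals mark matches, on either strand, to GAGGAA (the core bound by the myeloid and B cell factor PU.1), ATGCAAAT (the octamer of Oct proteins) and CANNTG (the E box).
Fcrl1: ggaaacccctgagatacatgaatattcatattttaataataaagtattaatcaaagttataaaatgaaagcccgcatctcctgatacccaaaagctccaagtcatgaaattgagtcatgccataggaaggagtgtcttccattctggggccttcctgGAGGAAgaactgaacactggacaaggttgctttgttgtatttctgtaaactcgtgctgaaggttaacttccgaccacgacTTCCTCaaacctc
Fcrl5: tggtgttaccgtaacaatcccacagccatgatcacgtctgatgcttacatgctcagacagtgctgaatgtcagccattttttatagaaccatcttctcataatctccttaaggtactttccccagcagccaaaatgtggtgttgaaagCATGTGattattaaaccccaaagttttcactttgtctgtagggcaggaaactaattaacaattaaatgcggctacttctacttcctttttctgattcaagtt
Fcer2a: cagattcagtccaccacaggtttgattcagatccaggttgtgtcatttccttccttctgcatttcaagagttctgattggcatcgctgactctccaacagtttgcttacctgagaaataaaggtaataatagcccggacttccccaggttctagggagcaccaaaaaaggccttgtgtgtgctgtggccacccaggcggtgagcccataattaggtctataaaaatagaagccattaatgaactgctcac
Pigr: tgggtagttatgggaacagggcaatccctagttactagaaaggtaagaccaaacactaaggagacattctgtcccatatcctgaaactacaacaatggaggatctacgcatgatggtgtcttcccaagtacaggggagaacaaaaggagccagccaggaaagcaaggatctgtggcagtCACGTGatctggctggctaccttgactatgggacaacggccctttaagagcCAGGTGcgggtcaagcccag

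In these windows Fcrl1 held GAGGAA 93 and 13 bases before the transcript start, the second on the opposite strand and within the gene span. Fcrl5 held a single CANNTG 102 bases before its start, Pigr held CANNTG 71 and 20 bases before its start, and the Fcer2a window held none of the searched motifs. No match overlapped another. Over the 10 members, GAGGAA was found in 5 windows, CANNTG in 7 and ATGCAAAT in 0. The windows with GAGGAA were those of Fcrl1, Faim3, Fcgr3, Fcrla and Fcamr, the last 3 of which lie well inside the gene. The Fcrla and Fcamr windows also held CANNTG. The shares over 32851 RefSeq promoter windows of the same length were 23.3% for GAGGAA, 66.2% for CANNTG and 1.6% for ATGCAAAT. A match describes letters and is not a bound site.

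Across all genes, 693 of 12078 tested genes (5.74%) differed between the cell types (adjusted p under 0.05, Benjamini-Hochberg, from the quasi-likelihood test of edgeR). Of these, 512 (4.24%) were higher in B1a cells, and 181 (1.5%) had their higher level in B2 cells. All 10 members passed the filter on low counts, and 3 of the 10 passed this test. Fcrl5 rose in B1a cells, and Fcrl1 and Fcer2a were higher in B2 cells. Fcer2a encodes CD23, an antigen of the gates, so its difference is a description of the sort, which leaves 2 of 9 members called. The 2 libraries of one cell type lay wholly above those of the other for 6 of 10 members, a share near that of all tested genes (54.3%). B1a lay above for 3 members (25.3% of tested genes) and B2 for 3 (29%). The median log2 fold change of the 10 members was 0.04, beside -0.03 for all tested genes. The B1a replicates were less alike than the B2 replicates (Pearson r of log2 CPM across genes of 0.836 and 0.966). B1a replicate 2 was as much like the B2 libraries (r of 0.858 and 0.837) as like B1a replicate 1, and B1a replicate 1 had r of 0.805 and 0.788 with the B2 libraries. Fewer cells of a type cannot be told apart from less RNA per cell in any of these values.

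**Figure D1:**
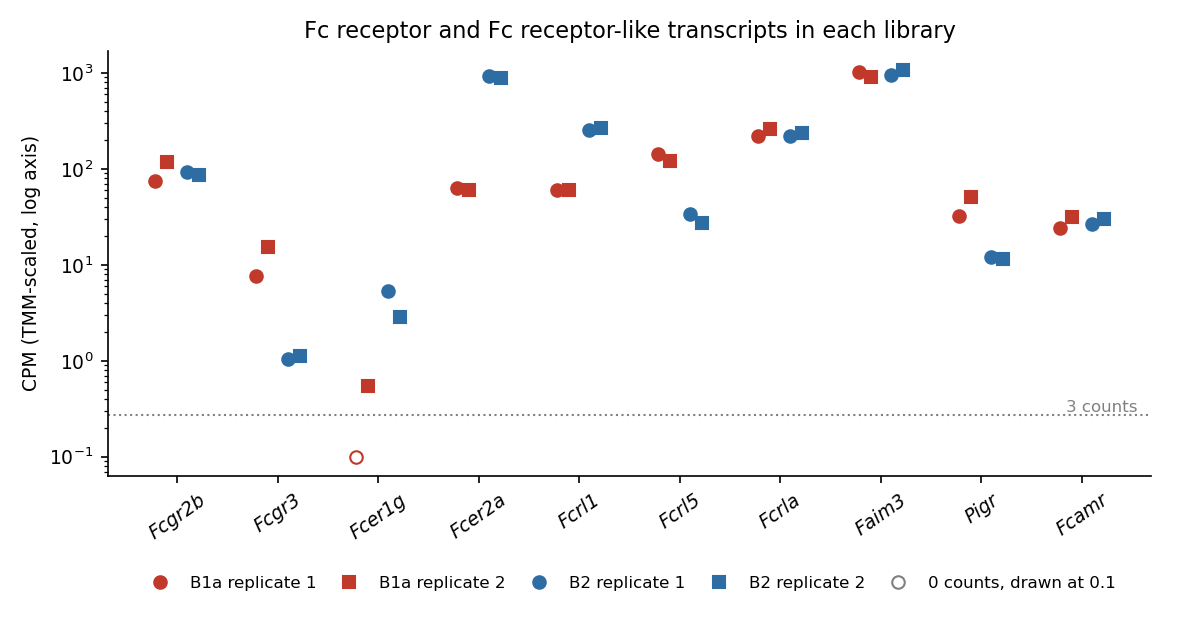
CPM (read counts scaled to library size, with TMM factors, log axis) of the 10 genes in each of the 4 libraries, B1a in red and B2 in blue, with circles for replicate 1 and squares for replicate 2; the dotted line marks the largest CPM that 3 counts give in a library. Fcer2a and Fcrl1 sit higher in both B2 libraries, Fcrl5, Pigr and Fcgr3 sit higher in both B1a libraries, and Fcer1g has 0 counts in 1 B1a library.

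Fcgr2b and Fcgr3 are the low-affinity receptors for IgG, the former inhibitory and the latter activating and known chiefly from myeloid and natural killer cells. Levels of one gene are given as CPM, the count scaled to library size. Fcgr2b was measured at 74.0 and 119 CPM in the B1a libraries and at 93.6 and 86.4 CPM in the B2 libraries. Both B2 values lay between the B1a values, and the log2 fold change (B1a minus B2) was 0.10 (standard error 0.26, adjusted p = 0.891 from edgeR). Fcgr3 was measured at 7.71 and 15.5 CPM in the B1a libraries and at 1.04 and 1.13 CPM in the B2 libraries. Both B1a libraries were thus higher for Fcgr3, by 10.7-fold in the means, on 86 and 172 counts against 11.96 and 21.68. Its log2 fold change was 3.39 (standard error 0.97), and the test did not call it (adjusted p = 0.123 from edgeR), although DESeq2 did (adjusted p = 0.00533). It was also called when either B1a library was left out, at adjusted p = 4.63e-08 without replicate 1 and 0.00587 without replicate 2 in edgeR, fits in which only the B2 libraries give the spread. Without B2 replicate 1 or B2 replicate 2 it was not called (adjusted p = 0.850 and 0.921 from edgeR).

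The 2 genes lie 89.8 kb apart on chromosome 1 (starts in RefSeq GRCm38.p6; Fcgr2b at chr1:170960558-170976071 and Fcgr3 at chr1:171051169-171065915, both on the minus strand) and are close relatives, so that some reads fit both. The posterior standard deviation of the count, which grows where reads are divided among genes, was at most 0.161% of the count for Fcgr2b. For Fcgr3 it was 0 and 1.23% of the count in the B1a libraries and 8.03% and 9.18% in the B2 libraries. The other 8 members had a value of at most 3.14%, reached by Pigr in a B2 library.

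The Fcgr2b transcripts differed in mean length while the gene's level did not pass the test. RSEM weights the length of each transcript by its share, and this mean was 1447 and 1472 bases in the B1a libraries and 1501 and 1502 bases in the B2 libraries. It was shorter in both B1a libraries, by 42.1 bases in the means. The exon of 141 bases printed above is the part that sets Fcgr2b-201 apart from Fcgr2b-202 within the coding sequence. Fcer2a also had shorter means in both B1a libraries (2052 and 2152 bases against 2213 and 2230). The comparison set was 3379 entries of tested genes with more than 1 transcript and a mean length that varied between libraries. In 35.3% of these the libraries did not overlap, and in 22.5% B1a was the shorter. An exact permutation test of 2 against 2 libraries cannot give a p below 0.33, so the length differences are a description. Fcrl1, Fcrl5, Fcrla and Fcamr also have several transcripts, and their mean lengths overlapped between the cell types.

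Fcer1g encodes the common gamma chain, the partner that Fcgr3 needs at the surface. It was measured at 0 and 0.540 CPM in the B1a libraries and at 5.38 and 2.88 CPM in the B2 libraries, that is 0 and 6 counts against 62 and 55. The B1a count of 0 allows up to 0.269 CPM. Fcer1g was thus higher in both B2 libraries, in the direction opposite to Fcgr3, but the test did not call it (log2 fold change -3.89, standard error 1.96, adjusted p = 0.340 from edgeR). Of the 4 fits with a library left out, 1 called it, that without B1a replicate 2, the library with the 6 counts (adjusted p = 0.000337 from edgeR), where a lone B1a library at 0 was set against the spread of the B2 libraries. The other 3 gave adjusted p from edgeR of 0.0597 without B1a replicate 1, 0.99989 without B2 replicate 1 and 0.99991 without B2 replicate 2.

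Markers of other cells that express these genes were read beside them. The summed level of 12 macrophage genes was 245 and 290 CPM in the B1a libraries and 74.5 and 80.2 CPM in the B2 libraries. Lyz2 alone gave 127 and 136 CPM of the B1a sums. Both B1a libraries lay above both B2 libraries for 7 of the 12, beside 25.3% of all tested genes. Csf1r, also of this list, overlapped at 16.9 and 21.9 against 21.2 and 18.4 CPM. 1 of 10 tested macrophage genes passed the test (Lyz2, higher in B1a cells), and Timd4 and Gata6, which mark resident peritoneal macrophages, were at 0 in 1 B1a library and at no more than 0.540 CPM in the other. The summed level of 8 mast cell genes was 47.6 and 24.4 CPM in the B1a libraries and 7.88 and 4.96 CPM in the B2 libraries, with Cma1, Mcpt4 and Tpsb2 at 0 in both B2 libraries and Fcer1a at 0 in all 4. 1 of 6 tested mast cell genes passed the test (Cma1, higher in B1a cells, adjusted p = 0.0499 from edgeR), and Ms4a2 had its higher values in the B2 libraries (11 and 12 counts against 59.9 and 68.8). Both sums were higher in both B1a libraries, as Fcgr3 was, whereas Fcer1g was lower there. From B1a replicate 1 to replicate 2 the macrophage sum rose, as Fcgr3 did, and the mast cell sum fell. The 7 natural killer cell genes summed to 3.13 and 1.52 CPM in the B1a libraries and to 10.3 and 12.3 CPM in the B2 libraries, and Ncr1, Klrb1c, Gzma, Nkg7 and Klrk1 were at 0 in both B1a libraries. Dendritic cell genes summed to 20.02 and 34.4 CPM in the B1a libraries and, a little higher, to 47.1 and 34.7 CPM in the B2 libraries. Of these 6 genes, 1 lay wholly higher in B2 cells and 1 in B1a cells. Flt3 and Clec9a were at 0 in 1 B1a library, but in the other Flt3 stood at 5.40 CPM, against 3.38 and 2.98 CPM in the B2 libraries. Both sums were higher in both B2 libraries, as Fcer1g was. Within each cell type the natural killer sum was higher in the replicate where Fcer1g was lower. The dendritic cell sum was higher in the replicate where Fcer1g was higher. The part of other cells in the values of Fcgr3 and Fcer1g was not tested.

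**Figure D2:**
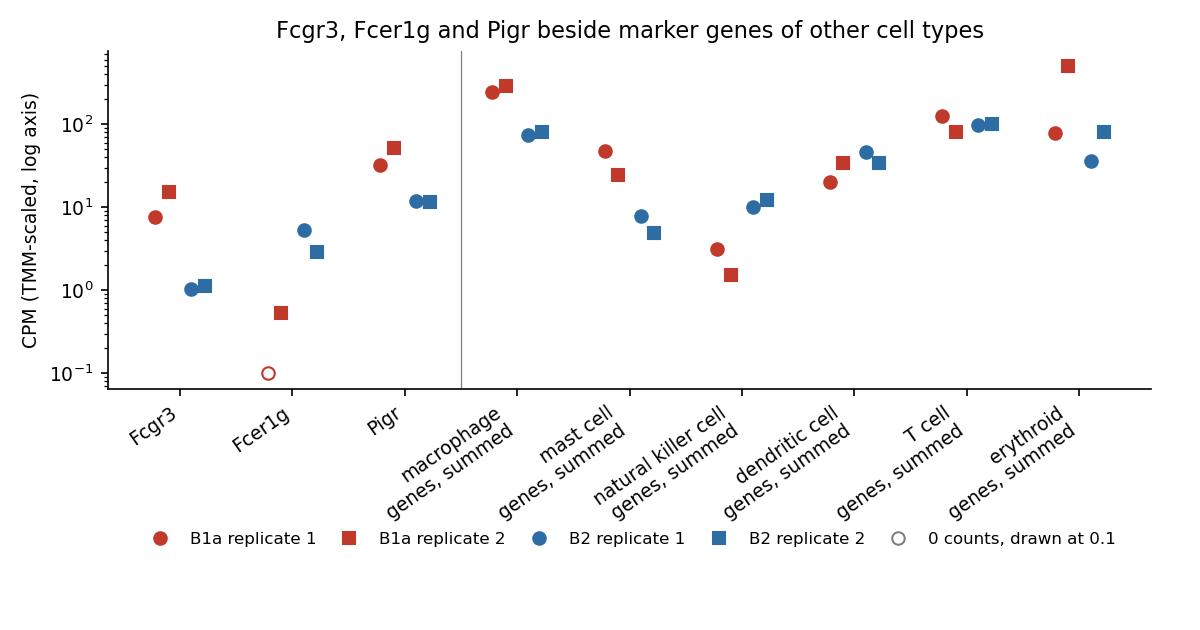
CPM (scaled by TMM, log axis) of Fcgr3, Fcer1g and Pigr and, right of the line, the summed CPM of marker genes of 6 other cell types in each library, B1a in red and B2 in blue. Macrophage and mast cell sums are higher in both B1a libraries, as Fcgr3 and Pigr are, whereas Fcer1g is lower there. Natural killer and dendritic cell sums are higher in both B2 libraries, as Fcer1g is, the dendritic cell sum by little in 1 of them.

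The sums of the T cell, erythroid, marginal zone B cell, neutrophil and B cell lists overlapped between the cell types. T cell genes summed to 127 and 80.8 CPM in the B1a libraries against 98.9 and 102 CPM in the B2 libraries. Erythroid genes summed to 78.8 and 504 against 36.1 and 80.8 CPM, with Hba-a2 called higher in B1a cells (adjusted p = 0.0278 from edgeR), and marginal zone B cell genes to 291 and 158 against 255 and 277 CPM. Of the neutrophil genes, S100a8, S100a9, Retnlg and Elane were at 0 in both B1a libraries, so that the sum of 338 and 206 CPM there was Cxcr2 alone, against a list sum of 312 and 286 CPM in the B2 libraries. S100a8 had 5 and 37 counts and S100a9 7 and 90 counts in the B2 libraries, in the direction of Fcer1g, and their part in its value was not tested. The B cell markers were abundant in every library, with Cd79a, a chain of the antigen receptor, at 1756 and 1661 against 1207 and 1151 CPM and the B cell transcription factor Pax5 at 268 and 265 against 501 and 492 CPM. Among the gate antigens, Spn and Itgam were called higher in B1a cells and Fcer2a and Cr2 in B2 cells, whereas Cd5 was measured at 15.9 and 22.4 against 5.47 and 2.25 CPM (adjusted p = 0.146 from edgeR).

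Fcer2a encodes CD23, the low-affinity receptor for IgE, which follicular B cells carry and B1a cells lack by the gate used here. It was measured at 63.7 and 60.9 CPM in the B1a libraries and at 934 and 896 CPM in the B2 libraries. The B2 libraries stood 14.7-fold higher in the means, which follows the sort, and the B1a libraries still held 711 and 678 counts of this transcript. Its log2 fold change was -3.87 (standard error 0.12). Over the 4 libraries and 8901 genes averaging 10 CPM or more, the patterns nearest to Fcer2a by Euclidean distance of mean-centred log2(CPM + 0.5) were those of Gdf11 (0.24), D8Ertd82e (0.40) and Treml2 (0.40). Gdf11, a secreted factor of the TGF-beta family, was measured at 2.24 and 2.52 CPM in the B1a libraries and at 45.3 and 47.8 CPM in the B2 libraries.

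Fcrl1 and Fcrl5 are Fc receptor-like proteins of the B cell surface. Fcrl1 carries activating motifs and assists the antigen receptor, whereas Fcrl5 has both activating and inhibitory motifs and is known from marginal zone and B1 cells. Fcrl1 was measured at 60.9 and 60.1 CPM in the B1a libraries and at 254 and 264 CPM in the B2 libraries. It was 4.28-fold higher in B2 cells, at a log2 ratio of -2.10 (standard error 0.15, adjusted p = 0.00209 from edgeR). Fcrl5 was measured at 145 and 122 CPM in the B1a libraries and at 33.5 and 27.2 CPM in the B2 libraries. It was 4.38-fold higher in B1a cells, at a log2 ratio of 2.13 (standard error 0.22, adjusted p = 0.00598 from edgeR). The differences of both genes were thus of like size and opposite direction, and larger than the spread between replicates.

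**Figure D3:**
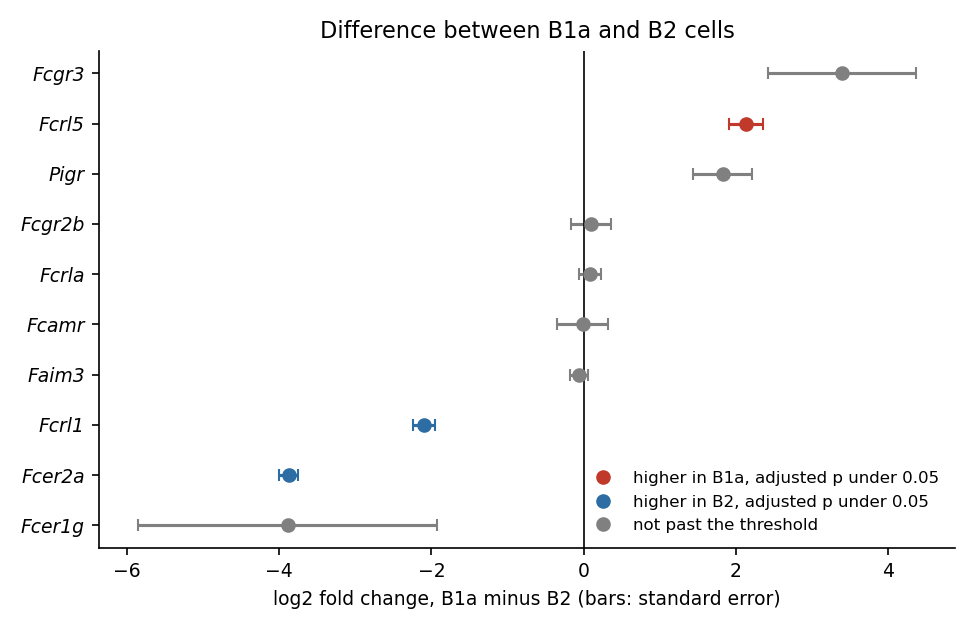
Log2 fold change of each gene, B1a minus B2, with the standard error as bars; red and blue points passed an adjusted p of 0.05 and grey points did not. Fcrl5 lies at 2.13 and Fcrl1 at -2.10, and Fcgr2b, Fcrla, Fcamr and Faim3 lie within 0.10 of 0.

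Fcrl1 and Fcrl5 are neighbours on chromosome 3 (chr3:87376353-87403967 and chr3:87435777-87500678, both on the plus strand), with starts 59.4 kb apart. 4 other genes start within 200 kb of either, and the 3 of them that were tested had a median log2 fold change of -0.36. The patterns nearest to Fcrl5 were those of Lrrc16a (0.07), an actin capping regulator now named Carmil1, Fos (0.09), an immediate early transcription factor, and Cfp (0.16), which encodes properdin of the complement system. Lrrc16a was measured at 234 and 206 CPM in the B1a libraries and at 56.6 and 43.9 CPM in the B2 libraries. Fos was measured at 861 and 702 CPM in the B1a libraries and at 192 and 150 CPM in the B2 libraries. With 4 libraries such likeness is mostly the difference between the cell types.

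Fcrla encodes a receptor-like protein that stays inside the B cell and binds immunoglobulin there. It was measured at 223 and 260 CPM in the B1a libraries and at 219 and 237 CPM in the B2 libraries. The values overlapped, and the log2 fold change was 0.08 (standard error 0.14, adjusted p = 0.826 from edgeR).

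Faim3, Pigr and Fcamr bind IgM, and the latter 2 also IgA, and they lie side by side on chromosome 1. Faim3, the IgM receptor of B cells, was measured at 1024 and 914 CPM in the B1a libraries and at 944 and 1072 CPM in the B2 libraries. Its values overlapped (log2 fold change -0.06, standard error 0.12, adjusted p = 0.860 from edgeR). Fcamr was measured at 24.5 and 31.7 CPM in the B1a libraries and at 26.4 and 30.1 CPM in the B2 libraries. Its values overlapped as well (log2 fold change -0.01, standard error 0.33, adjusted p = 0.992 from edgeR).

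Pigr, which carries polymeric IgA and IgM across epithelia, stood apart from both neighbours. It was measured at 32.6 and 51.6 CPM in the B1a libraries and at 12.1 and 11.6 CPM in the B2 libraries, on 139 to 573 counts. Both B1a libraries were higher, by 3.55-fold in the means, with a log2 fold change of 1.83 (standard error 0.39). The adjusted p was 0.0550 from edgeR, just outside the threshold, and lay between 0.00181 and 0.137 over 10 other ways of processing, 6 of which called the gene. Pigr was also called without B1a replicate 1 (adjusted p = 3.53e-13 from edgeR) and without B1a replicate 2 (adjusted p = 2.08e-05 from edgeR). It was not called when a B2 library was left out (adjusted p = 0.235 and 0.263 from edgeR). The macrophage and mast cell sums given above were also higher in both B1a libraries. From B1a replicate 1 to replicate 2 the macrophage sum rose, as Pigr did, and the mast cell sum fell. Their part in the value of Pigr was not tested.

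Genes beside the members were read in the same test. Over all loci, 53 other genes start within 200 kb of a member, 34 of them were tested, and 2 passed the test, both higher in B1a cells, a share near that of all tested genes (5.74%). Il10, which encodes the cytokine interleukin 10 that B1a cells are known to secrete, starts 154 kb from Faim3 and was measured at 239 and 88 counts in the B1a libraries and at 0 counts in both B2 libraries (adjusted p = 0.0322 from edgeR). Against 3 counts in each B2 library, the mean Il10 level of the B1a libraries (21.4 and 7.91 CPM) was at least 70.3-fold higher. Atf6, a transcription factor of the unfolded protein response, starts 63.6 kb from Fcrla and 107 kb from Fcgr2b. It was measured at 449 and 379 CPM in the B1a libraries and at 154 and 177 CPM in the B2 libraries (log2 fold change 1.32, standard error 0.15, adjusted p = 0.00833 from edgeR). Both lie on chromosome 1, 1 at each of its 2 groups of members.

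**Figure D4:**
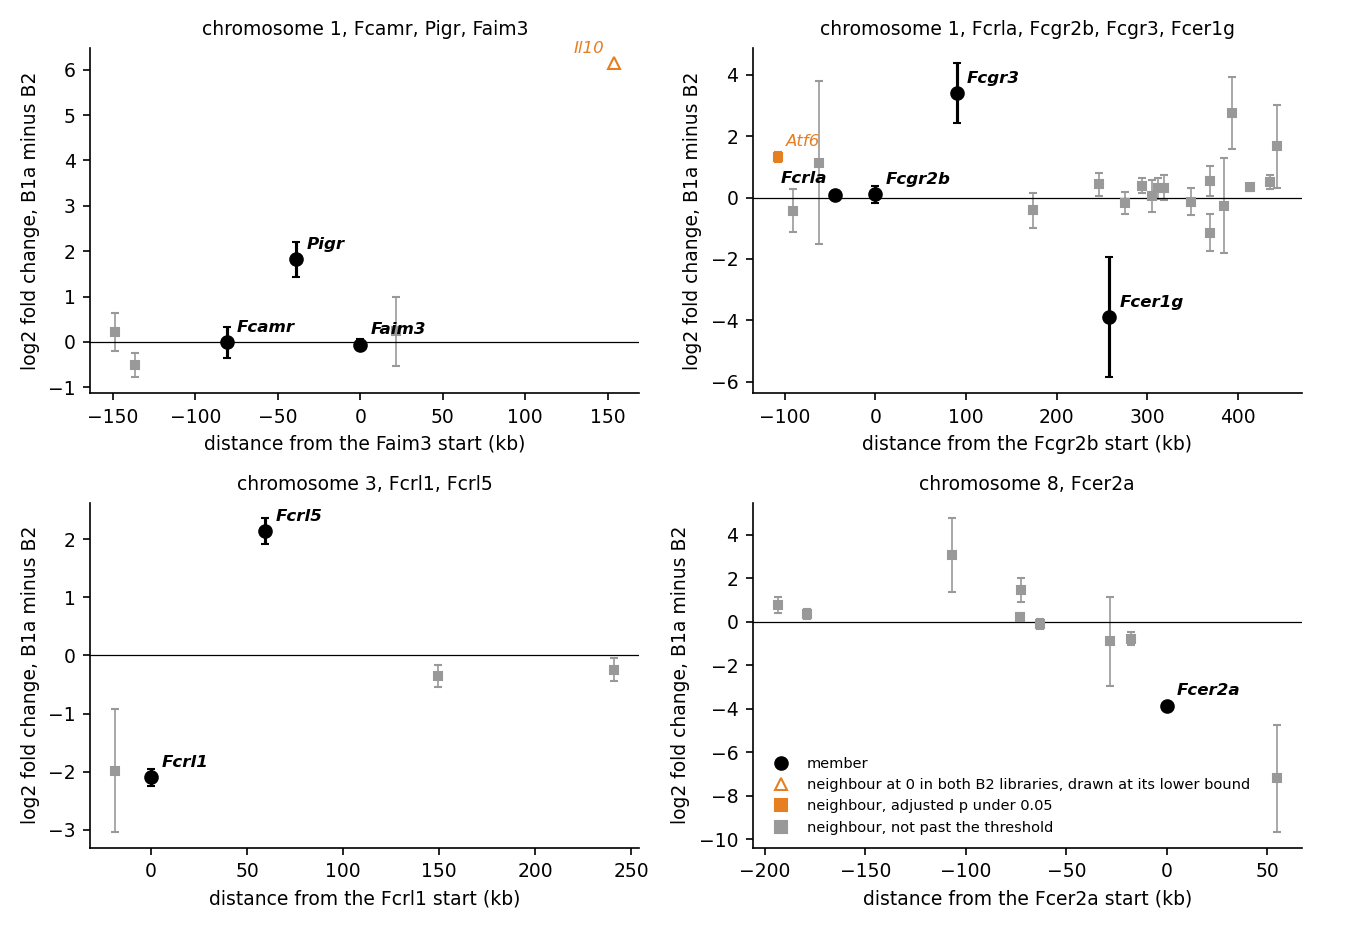
Log2 fold change (B1a minus B2, bars standard error) of the members (black) and of tested genes starting within 200 kb of them, against the distance in kb from the start of the member named on each axis. Orange marks neighbours that passed the test, with Il10 drawn as an open triangle at its lower bound, and grey marks the others; Fcrl1 and Fcrl5 lie on opposite sides of 0.

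Levels of different genes were compared per transcript length, in TPM, a share of all transcripts. In B1a cells Faim3 led at 1560 ± 154 TPM (SD, n = 2), followed by Fcrla at 347 ± 31.1. Fcgr2b (158 ± 47.1) and Fcrl5 (128 ± 17.9) were next and overlapped, as did Fcrl1 (73.9 ± 6.31) and Fcer2a (70.2 ± 5.91). Fcamr (36.7 ± 8.45), Pigr (25.4 ± 7.64) and Fcgr3 (20.6 ± 9.39) followed, with overlap between Fcamr and Pigr and between Pigr and Fcgr3. Fcer1g was lowest and separated from Fcgr3, listed at 0 in replicate 1 and at 2.08 TPM in replicate 2.

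In B2 cells Faim3 again led at 1914 ± 151 TPM (SD, n = 2), with Fcer2a second at 1148 ± 52.7. Fcrla (387 ± 16.9), Fcrl1 (369 ± 8.75) and Fcgr2b (170 ± 11.6) followed. Below them stood Fcamr (45.5 ± 3.76), Fcrl5 (34.6 ± 5.42), Fcer1g (19.1 ± 8.37), Pigr (8.46 ± 0.30) and Fcgr3 (2.28 ± 0.12), and no 2 neighbours in this order overlapped. Fcrl5 thus took the fourth place of 10 in B1a cells and the seventh in B2 cells, and the IgM receptor Faim3 was the most abundant in both.

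**Figure D5:**
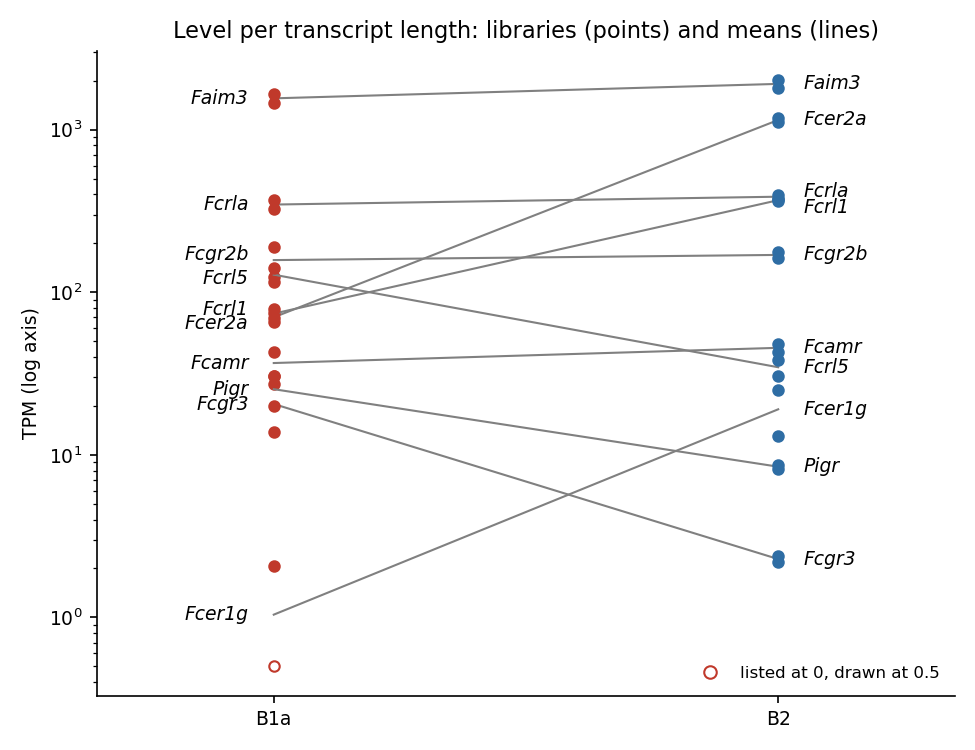
TPM (log axis) of each gene in the 2 B1a libraries (red, left) and the 2 B2 libraries (blue, right), with lines joining the means. The lines of Fcer2a, Fcrl1 and Fcer1g climb toward B2 cells and those of Fcrl5, Pigr and Fcgr3 descend, while Faim3 stays at the top.

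The genes that act around these receptors were read as 4 lists. Of 9 other Fc receptors and relatives, 5 were tested (Fcgrt, Ms4a2, Fcrlb, Fcrl6 and Trim21), with adjusted p between 0.241 and 0.876 in edgeR. Fcer1a, the ligand-binding chain of the high-affinity IgE receptor, was at 0 in all 4 libraries, and the high-affinity IgG receptor gene Fcgr1 had 5 counts in 1 B2 library and 0 in the other 3. Fcgr4, an activating IgG receptor of myeloid cells, was measured at 0 and 8.81 CPM in the B1a libraries and at 0.608 and 0 CPM in the B2 libraries, so that 1 library of each cell type was at 0.

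Of 10 genes that carry the inhibitory signal of Fcgr2b, all were tested and 2 passed, with a list median log2 fold change of -0.16. Inppl1, which encodes the lipid phosphatase SHIP2, was measured at 56.0 and 76.1 CPM in the B1a libraries and at 22.1 and 23.7 CPM in the B2 libraries. It was higher in B1a cells (log2 fold change 1.53, standard error 0.28, adjusted p = 0.0362 from edgeR). Ptpn6, which encodes the protein phosphatase SHP-1, was measured at 451 and 356 CPM in the B1a libraries and at 767 and 710 CPM in the B2 libraries. It was higher in B2 cells (log2 fold change -0.87, standard error 0.15, adjusted p = 0.0283 from edgeR). Inpp5d, which encodes SHIP1, the main phosphatase recruited by Fcgr2b, was measured at 397 and 429 against 449 and 444 CPM and was not called (adjusted p = 0.660 from edgeR).

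Of 14 effectors of ITAM-bearing receptors, 13 were tested and 2 passed, with a list median of -0.27, and Bcar1 was at 0 in all 4 libraries. Syk, the kinase that docks on phosphorylated ITAMs, was measured at 2248 and 2275 CPM in the B1a libraries and at 1280 and 1337 CPM in the B2 libraries. It was higher in B1a cells (log2 fold change 0.79, standard error 0.09, adjusted p = 0.00870 from edgeR). Fyn, a Src family kinase that works with Fc receptors, was measured at 25.8 and 20.6 CPM in the B1a libraries and at 69.5 and 70.9 CPM in the B2 libraries. It was higher in B2 cells (log2 fold change -1.60, standard error 0.26, adjusted p = 0.0255 from edgeR).

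Of 8 listed partners of CD23 and of the polymeric immunoglobulin receptor, 7 were found and tested, and 2 passed. Cr2, which encodes the CD23 ligand CD21 and is itself an antigen of the follicular gate, was measured at 98.4 and 92.03 CPM in the B1a libraries and at 968 and 1045 CPM in the B2 libraries. Mzb1, a chaperone of IgM assembly, was measured at 219 and 221 CPM in the B1a libraries and at 60.4 and 70.2 CPM in the B2 libraries. Mzb1 was higher in B1a cells (log2 fold change 1.75, standard error 0.16, adjusted p = 0.00432 from edgeR). Igj, the older symbol of the joining chain that polymeric immunoglobulin needs to bind Pigr, was measured at 0.179 and 5.40 against 3.47 and 2.56 CPM and was not called (adjusted p = 0.980 from edgeR). Over the 4 lists 6 of 35 tested genes passed, 3 in each direction, beside 5.74% of all tested genes (4.24% higher in B1a and 1.5% in B2). This count includes Cr2, whose difference is a description of the sort, as that of Fcer2a is.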

How the data were processed

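RNA-Seq libraries of wild-type B1a cells (n = 2) and follicular B2 cells (n = 2) were analysed; libraries of Dnmt3a-deficient cells were not analysed here. The authors mapped reads to mm10, and RefSeq genes were quantified by RSEM (version 1.2.29 per the submitters' processing notes). They deposited, for 21970 gene entries, an expected count without normalization, in which reads that match several genes are divided, and TPM scaled to the same total in each library. Also deposited were a signal value, the posterior standard deviation of each count, and the mean transcript length, both used as descriptions.

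Expected counts were summed by symbol (20599 symbols), rounded, filtered with filterByExpr, scaled by TMM (factors between 0.963 and 1.05) and tested with edgeR 4.0.16 (R 4.3.3) by the quasi-likelihood test without a block. p-values were adjusted by Benjamini-Hochberg over 12078 genes at a threshold of 0.05, two-sided, and standard errors were derived from the F statistic. EBSeq, named in the methods, was not run. The alternatives were DESeq2 1.42.0, upper quartile factors, limma-voom (limma 3.58.1) with and without a weight for each cell type, a stricter filter (10 counts or more in each library), almost no filter (1 count in any library), log2(TPM + 1) or log2(TPM + 0.1) values in limma where the mean TPM reached 1, entries not summed, a replicate block, and each replicate left out. Tests were checked on simulated data, with an outcome not reported here. The simulation gave both cell types the same spread, whereas the B1a replicates here were less alike than the B2 replicates. The members, the gene lists and these alternatives were chosen with earlier results of these data known. The text names all members, genes of the 4 pathway lists that passed or were at 0 in every library, sums and some members at 0 of the marker lists, neighbours within 200 kb that passed, and the 3 patterns nearest to Fcer2a and Fcrl5. Inpp5d, Igj, Fcgr1, Fcgr4, Fcgrt, Ms4a2, Fcrlb, Fcrl6, Trim21, Cd5, Cd79a, Pax5, Lyz2, Csf1r, Cma1, Spn, Itgam and Hba-a2 were added after their values were seen. A floor of 3 counts covers counting error only. Fc receptors were blocked before staining with antibody 2.4G2, which binds the products of Fcgr2b and Fcgr3. Other genes of the marker and partner lists were not found under their symbol or are not reported here.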

Additional observations from a re-analysis of the deposited data

How the results depend on the processing

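Fcer2a, Fcrl1 and Fcrl5 kept their direction and stayed past the threshold under all 10 alternatives and with each of the 4 libraries left out. Fcgr3 was called under 3 of 10 alternatives (adjusted p from 0.00533 to 0.212) and Fcer1g under 0 of 9 (0.0835 to 0.609). The number of genes called was 693, and became 1550 with DESeq2, 1415 with a weight for each cell type, 1141 without a filter, 359 on log2(TPM + 0.1) and between 539 and 6143 with a library left out. On log2(TPM + 1) 266 calls favoured B1a cells and 233 favoured B2 cells, against 512 and 181. The members called rose from 3 to 5 with DESeq2, with the weights and with at least 10 counts in every library, and lay between 3 and 6 with a library left out. The list genes called went from 6 to 10 with DESeq2, 10 with the weights and 3 on log2(TPM + 0.1), and lay between 4 and 21 with a library left out. The largest counts came without B1a replicate 2 (6143 genes, 2787 higher in B1a and 3356 in B2) and without B1a replicate 1 (3953 genes, 2050 and 1903), where the lone B1a library was assumed to vary like the B2 libraries. Small differences changed sign. Fcgr2b became -0.14 and Fcrla -0.16 on both TPM scales, where the median of all genes moved from -0.03 to -0.30 and -0.32. With a library left out, Fcgr2b lay between -0.28 and 0.40, Fcrla between -0.036 and 0.18, Faim3 between -0.15 and 0.031 and Fcamr between -0.21 and 0.16. Fcgr2b and Fcrla turned without B1a replicate 2, Faim3 without B1a replicate 2 (0.02) or B2 replicate 2, and Fcamr without B1a replicate 1 or B2 replicate 2 (0.08). The cause of these changes was not tested. The replicate numbers are shared but name different mice (r of deviations -0.03), and a replicate block gave 1481 called genes, 4 members, with Pigr added (adjusted p = 0.00438 from edgeR), and 9 list genes.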
